A study of Mus musculus with 2 samples.

Results

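Chemokines and their receptors were described here in the proximal intestine of mice without the scavenger receptor CD36, which binds fatty acids and oxidized lipoproteins at the cell surface. The genes were chosen by symbol: all those named Ccl, Cxcl, Ccr, Cxcr or Ackr with a digit, plus Cx3cl1, Cx3cr1, Xcl1 and Xcr1. This gave 54 genes of the 18194 measured, 33 ligands and 21 receptors, read by 86 of the 45101 probe sets of the array. The series held 2 Affymetrix arrays. The WT array carried RNA of wild-type C57BL/6 mice, and the CD36KO array carried RNA of mice on the same background with a germline CD36 deletion, which removes the receptor from every cell type that makes it. All animals ate chow, and each array held the pooled RNA of 3 animals, taken from the proximal section of the whole intestine rather than from sorted cells. The sources used here give neither age nor sex. By its title the series was about the matrix of the gut wall and about neutrophils, the leukocytes that several of these chemokines attract.

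Chemokines are small secreted proteins that bind to heparan sulfate on cells and matrix and form gradients along which leukocytes migrate. They are read by receptors coupled to inhibitory G proteins, while atypical receptors of the Ackr group bind chemokines and remove them without that signal. In the small intestine the epithelium makes Ccl25, Ccl28 and Ccl20 in health, the stroma of lymphoid follicles makes Cxcl13 and Ccl21, and many of the other ligands are induced by cytokines during inflammation.

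Each genotype was a single array of a pool, so no difference below could be compared with a spread between animals or arrays, no test was run, and precision is limited by the number of arrays. A fold of 1.5 was used to describe size. A gene was called above the filter where the higher of its log2 values reached 4.51, which is the median of such higher values across the array, since the deposited table holds no detection calls. Cd36 was lower on the CD36KO array at each of its 3 probe sets, at 7.70 against 5.87, 7.68 against 6.02 and 4.74 against 3.52 (WT against CD36KO, log2); the sources used here do not say whether they lie in the deleted part. All 7 epithelial markers were above the filter on both arrays, but they do not tell segments of the intestine apart. The pools differed in other ways that move beside the results below. The beta-actin control was higher at its 3' than at its 5' probe set by 2.28 in WT and by 1.34 in CD36KO (log2), the 7 markers of the distal segment were all at least 1.5-fold higher in CD36KO (median 2.08), and the 8 markers of the proximal segment were lower (median -1.01, 5 past 1.5-fold). The largest difference among the distal markers was that of Fabp6 (6.25 in WT, 12.92 in CD36KO). All 6 pancreas acinar markers were more than 2-fold higher in CD36KO (median 1.90), and 5 of 7 smooth muscle markers were higher past 1.5-fold (median 0.80). As the tissue was measured in bulk, fewer cells of a type and less RNA per cell cannot be told apart.

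Among the chemokine genes above the filter, those higher in CD36KO by 1.5-fold or more were Ccl6, Ccl8, Ccl9, Cxcl13, Cxcl12, Cxcl9 and the atypical receptor Ackr3, and Ccl24 was the 1 lower by as much. Of the 54 genes 32 were above the filter, and 7 of these 32 were higher and 1 lower. Of all 11981 genes that passed the filter, 5.31% were higher and 3.31% lower by 1.5-fold or more. The 32 had a median CD36KO minus WT difference of 0.21 (log2), with 19 above 0, beside a median of -0.0059 over all genes above the filter. Passing the filter on 1 array alone favours genes that differ, but it added only Cx3cr1 (through CD36KO) and Ccl27a (through WT). The 30 genes above the filter on both arrays held the same counts, 7 higher and 1 lower. Of all 11442 genes above it on both arrays, 4.74% were higher and 3.10% lower. Without a filter 9 of the 54 genes were higher and 1 lower, beside 3.81% and 2.6% of all genes. At 2-fold 2 chemokine genes above the filter, Ccl6 and Ccl8, were higher, and 0 were lower, beside 1.61% and 0.626% of all genes. Among genes above the filter, those nearest to the 1.5-fold line, a difference of 0.585, were Cxcl9 (0.648) on one side and Ccr6 (0.576, 1.49-fold) on the other; below the filter Cxcr4 (0.585) lay on the line itself. By kind, 6 of 23 ligands above the filter were higher and 1 lower, with a median of 0.15, and 1 of 9 receptors was higher and 0 lower, with a median of 0.26. The plot of levels by role shows the values of these 32 genes on both arrays.

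**Figure D1:**
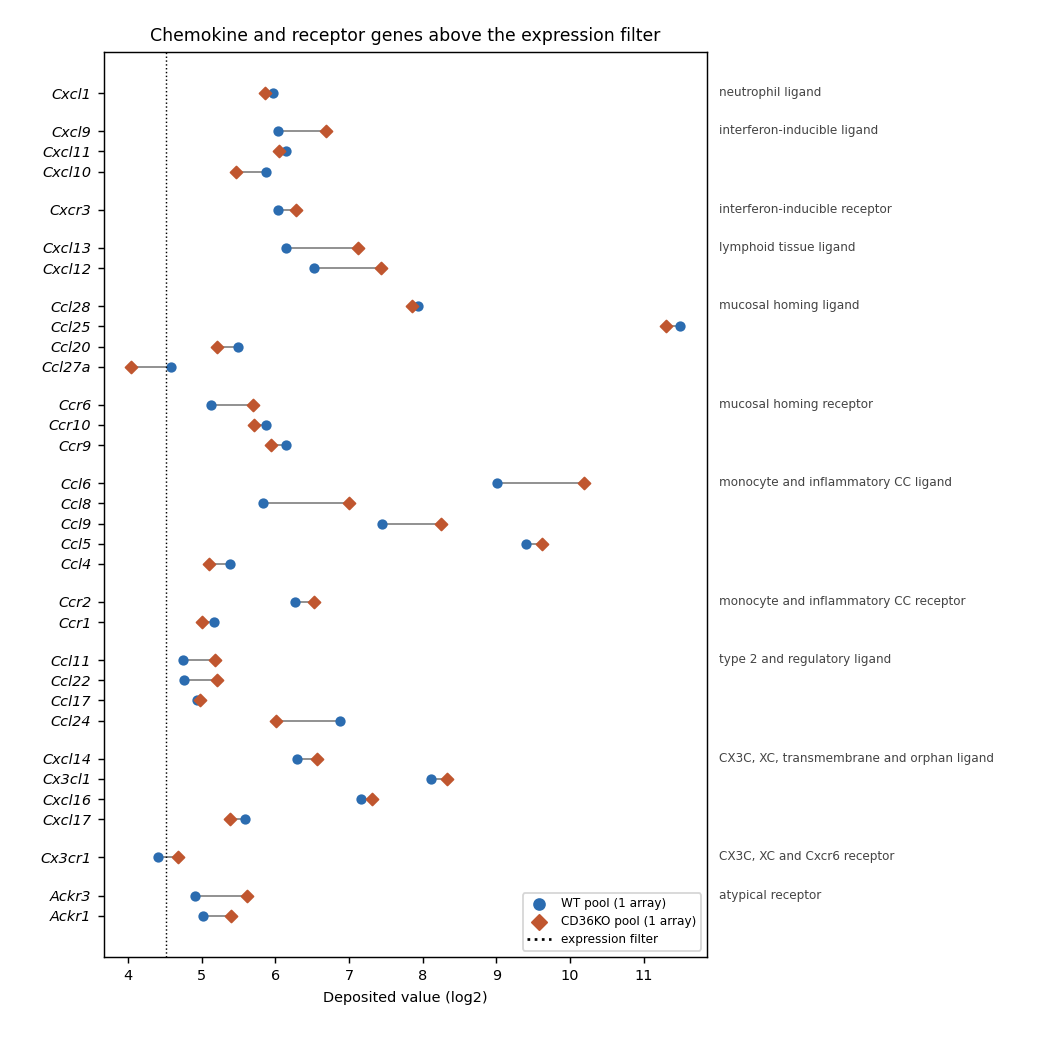
Deposited log2 value (horizontal axis) of each of the 32 chemokine and receptor genes above the expression filter (dotted line at 4.51), grouped by role, on the WT array (circles) and the CD36KO array (diamonds). The widest gaps to the right are those of Ccl6 (9.01 to 10.18) and Ccl8 (5.84 to 7.00), and the widest to the left is that of Ccl24 (6.87 to 6.01); there is 1 array per genotype and hence no error bar.

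The inflammatory CC ligands held the highest differences. Ccl6, a ligand of Ccr1 made by myeloid cells, read 9.01 in WT and 10.18 in CD36KO, or 2.25-fold higher. Its second probe set read 7.77 and 8.68, a difference of 0.91, so both readings of the gene were higher in CD36KO. Ccl9, a related Ccr1 ligand that attracts dendritic cells, read 7.45 in WT and 8.25 in CD36KO (1.74-fold higher), and 4.24 and 5.26 at its other probe set. Ccl8, a member of the monocyte chemoattractant group that acts on Ccr8-bearing T cells in mice, read 5.84 in WT and 7.00 in CD36KO, 2.24-fold higher at its single probe set. The other 2 ligands of this role above the filter lay within 1.5-fold. Ccl5, a product of T and NK cells that binds Ccr1, read 9.41 in WT and 9.62 in CD36KO, and Ccl4, a chemokine of activated leukocytes, read 5.38 and 5.10. The monocyte chemoattractants Ccl2 (3.52 in WT, 3.54 in CD36KO) and Ccl7 (3.56 and 3.35), and Ccl3 (3.58 and 3.68), were below the filter on both arrays. Ccl12, a further monocyte chemoattractant, read 3.48 in WT and 4.26 in CD36KO, higher by 0.79 but also below the filter. Of all 9 ligands of this role, 4 were thus at least 1.5-fold higher, 1 of them under the filter, and 0 were lower. Over all genes without a filter the shares were 3.81% and 2.6%.

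The receptors of these ligands did not differ to the same extent. Ccr1 read 5.16 in WT and 5.01 in CD36KO, with a difference of -0.18 at its other, low probe set. Ccr2, the receptor that draws monocytes from the blood, read 6.27 in WT and 6.53 in CD36KO at the probe set used. Its other 3 probe sets were below the filter and ran from -0.33 to 0.24. Ccr1l1, a Ccr1-like receptor gene, was below the filter at 3.45 and 3.29. In the same pools 4 of the 10 macrophage and monocyte markers above the filter were higher past 1.5-fold and 0 lower, with a median of 0.37. These were Cd68 (3.46 in WT, 5.18 in CD36KO, above the filter through CD36KO alone), the lysozyme gene Lyz2 (9.46 and 10.57) and the complement genes C1qa (7.22 and 8.02) and C1qc (7.06 and 7.89). The defining receptors Csf1r (9.28 and 9.46) and Adgre1 (6.12 and 6.40) differed by less. The summed level of the 11 measured macrophage markers was 11.27 in WT and 11.83 in CD36KO (log2 of the summed linear values). Goblet cell markers were also higher, 4 of 7 past 1.5-fold with a median of 0.91 and a summed level of 15.18 in WT and 15.55 in CD36KO. The part of these marker genes in the higher Ccl6, Ccl8 and Ccl9 values was not tested.

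Ccl8, Ccl9 and Ccl6 are on chromosome 11, which carries 14 of the 54 genes, most of them in a pair of CC ligand clusters. In RefSeq order the first cluster reads Ccl2 (0.02), Ccl7 (-0.21), Ccl11 (0.45), Ccl12 (0.79), Ccl8 (1.17) and Ccl1 (-0.05), each value being the CD36KO minus WT difference in log2. The second reads Ccl5 (0.21), Ccl9 (0.80), Ccl6 (1.17), Ccl3 (0.10) and Ccl4 (-0.28). In either cluster the genes past 1.5-fold stood next to each other, Ccl12 with Ccl8 and Ccl9 with Ccl6, while genes at the ends lay within 1.5-fold. In the first cluster only Ccl11 and Ccl8 were above the filter, so Ccl12 and the end genes Ccl2 and Ccl1 had low signal. In the second only Ccl3 was below it. This adjacency was noticed after the values were seen. Chromosome 5, which carries Cd36, holds 10 of the genes. Of the 6 above the filter there, Cxcl9 and Cxcl13 were higher, Ccl24 was lower, and the median was -0.10. Chromosome 9 holds 13 of the receptor genes, 4 of them above the filter, and 0 passed 1.5-fold in either direction. Of all 11981 genes above the filter, 10949 lay within 1.5-fold.

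**Figure D2:**
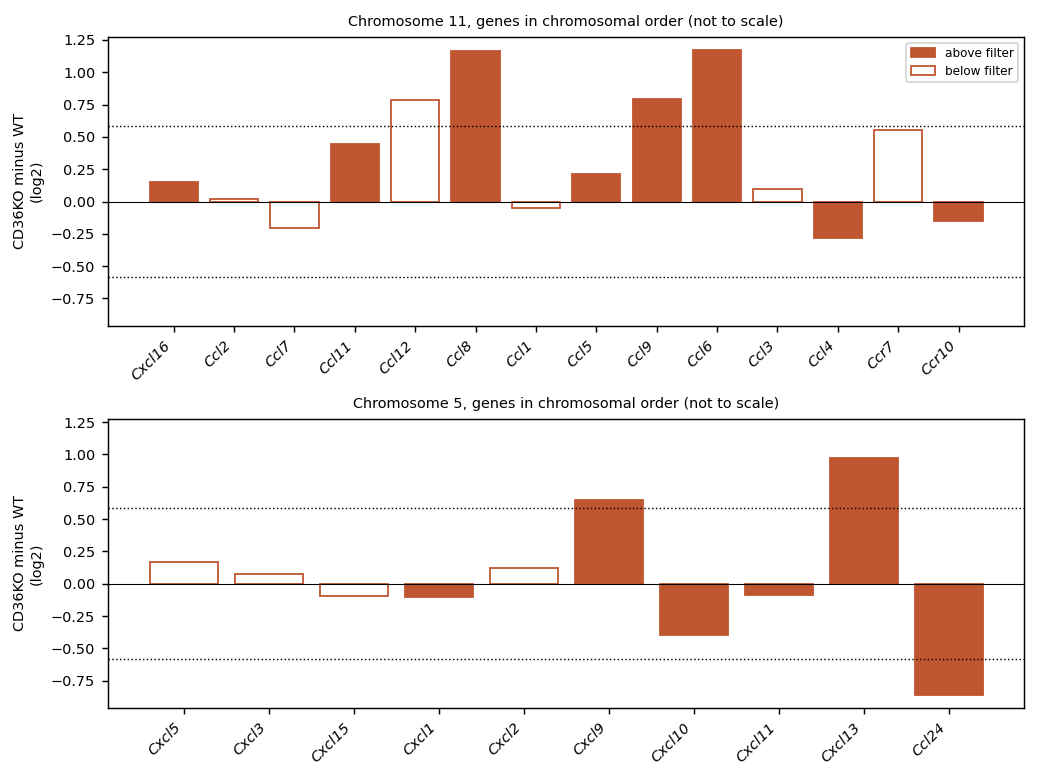
CD36KO minus WT difference (vertical axis, log2) of the chemokine and receptor genes of chromosome 11 (upper panel, 14 genes) and chromosome 5 (lower panel, 10 genes) in RefSeq order, not to scale; filled bars are genes above the filter, open bars genes below it, and dotted lines mark 1.5-fold. Ccl12 and Ccl8 (0.79 and 1.17), and Ccl9 and Ccl6 (0.80 and 1.17), are adjacent tall bars. The neutrophil ligands Cxcl5, Cxcl3, Cxcl15, Cxcl1 and Cxcl2 stay between -0.10 and 0.17. Of the genes named here, Ccl12, Cxcl5, Cxcl3, Cxcl15 and Cxcl2 are open bars.

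The upstream sequences of the 3 adjacent or neighbouring CC ligands that were higher, and of Cxcl13, are shown so that the promoters of genes that differed in the same direction can be read side by side. They are the 250 bases before the RefSeq start on the coding strand, from GRCm38.p6; capitals mark matches on either strand to TATAAA, the TATA box.
Ccl8, chr11:82114935-82115184, plus strand: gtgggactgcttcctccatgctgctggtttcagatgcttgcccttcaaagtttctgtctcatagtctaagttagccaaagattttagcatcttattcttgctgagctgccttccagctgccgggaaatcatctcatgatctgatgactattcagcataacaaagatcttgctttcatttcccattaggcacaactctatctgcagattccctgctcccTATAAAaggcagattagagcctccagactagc
Ccl9, chr11:83578637-83578886, minus strand: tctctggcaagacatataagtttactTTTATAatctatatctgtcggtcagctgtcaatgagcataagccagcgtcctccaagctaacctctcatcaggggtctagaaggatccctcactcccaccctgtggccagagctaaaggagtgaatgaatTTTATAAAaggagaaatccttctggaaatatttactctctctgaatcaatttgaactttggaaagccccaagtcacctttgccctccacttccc
Ccl6, chr11:83593088-83593337, minus strand: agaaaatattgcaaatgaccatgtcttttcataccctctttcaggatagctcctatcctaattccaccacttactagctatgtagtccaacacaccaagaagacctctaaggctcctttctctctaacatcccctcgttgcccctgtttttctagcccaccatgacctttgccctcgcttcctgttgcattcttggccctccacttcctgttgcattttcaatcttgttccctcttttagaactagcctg
Cxcl13, chr5:95956689-95956938, plus strand: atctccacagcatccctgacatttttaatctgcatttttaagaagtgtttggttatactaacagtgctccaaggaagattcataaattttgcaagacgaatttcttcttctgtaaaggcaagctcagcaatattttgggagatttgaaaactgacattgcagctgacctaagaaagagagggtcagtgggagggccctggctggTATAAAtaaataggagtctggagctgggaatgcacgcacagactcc

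The TATA letters end 27 bases before the start in Ccl8 and 41 bases before it in Cxcl13, and lie further upstream in Ccl9. The window of Ccl6 held no match. TGACTCA (the AP-1 site), TTCNNNGAA (the core of STAT sites) and CCAAT (the CCAAT box) were also searched on both strands. These 4 windows held 0 matches to them. Overlapping matches were each counted. The windows of Ackr3, Cxcl9 and Cxcl12, which were also higher by 1.5-fold or more, are not printed. Those of Ackr3 and Cxcl9 held matches to TATAAA and to CCAAT, and that of Cxcl12 held no match. TATAAA was found in 13.0% of all 27025 RefSeq windows of this length and in 13 of the 41 chemokine genes with a window (31.7%). The AP-1 letters were found in 4.43% of all windows and in 3 of the 41, the STAT letters in 7.14% and in 4 of the 41, and the CCAAT letters in 34.5% and in 12 of the 41. These matches describe letters, and no binding was measured.

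The ligands that organise lymphoid tissue were higher at both genes of that role. Cxcl13, the B cell attractant of follicles, read 6.15 in WT and 7.12 in CD36KO, 1.96-fold higher, and its other probe set read 5.56 and 6.42. Cxcl12, a stromal ligand that holds Cxcr4-bearing cells in tissue, read 6.52 in WT and 7.43 in CD36KO, 1.88-fold higher. The second probe set of Cxcl12 read 5.08 and 5.40 (0.32) and the last 3.62 and 3.73 (0.11), so the gene passed 1.5-fold at 1 of its 3 probe sets, and the mean over them was 0.44. Their receptors Cxcr5 and Cxcr4 were below the filter, while the atypical receptor Ackr3, which takes up Cxcl12, was above it. Cxcr5, the receptor of Cxcl13, read 4.44 on both arrays. Cxcr4 read 3.67 in WT and 4.26 in CD36KO, a difference of 0.585, on the 1.5-fold line, and Ccr7, which guides cells to lymphatics and T cell zones, read 3.87 and 4.42. In the same pools 7 of 9 fibroblast markers were at least 1.5-fold higher, with a median of 1.14 and a summed level of 11.25 in WT and 12.30 in CD36KO. Of the 8 B and plasma cell markers above the filter 2 were higher, Ms4a1 (5.32 in WT, 6.28 in CD36KO) and Pou2af1 (6.33 and 7.26), and the median was 0.37. The follicular receptor Cr2 (4.04 and 3.92) was below the filter, and the 4 lymphoid stroma markers above it had a median of 0.05. The part of stromal and B cell markers in the Cxcl12 and Cxcl13 values was not tested.

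The atypical receptors differed in signal and direction. Ackr3, which takes up Cxcl12, read 4.91 in WT and 5.61 in CD36KO, 1.62-fold higher at its single probe set. Ackr1, the chemokine carrier of venules and red cells, read 5.01 in WT and 5.40 in CD36KO, within 1.5-fold, while 2 of 8 blood endothelial markers, a list that holds Ackr1 itself, were higher, Pecam1 (3.90 in WT, 4.74 in CD36KO) and Emcn (4.48 and 5.32), both above the filter through CD36KO alone. Ackr2, a scavenger of inflammatory CC ligands, was below the filter at 4.28 and 4.46 at the probe set used, but a further probe set read 4.63 in WT and 3.92 in CD36KO, differing by -0.71 and above the filter in WT. Its readings thus gave both directions. Ackr4, which removes Ccl19, Ccl21 and Ccl25, read 4.27 in WT and 3.89 in CD36KO, and its 3 probe sets were all lower in CD36KO, from -0.55 to -0.38, with both arrays below the filter.

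The ligands and receptors of mucosal homing lay within 1.5-fold, 7 of 7 genes, as did 10949 of all 11981 genes above the filter. Ccl25, the epithelial ligand of the small intestine that draws Ccr9-bearing lymphocytes, read 11.49 in WT and 11.31 in CD36KO, and 5.40 and 5.11 at its other probe set. Ccl28, which attracts IgA-secreting plasma cells, read 7.93 in WT and 7.86 in CD36KO, with differences of -0.04 and 0.22 at its other probe sets. Ccl20, made by the epithelium over lymphoid follicles, read 5.50 in WT and 5.21 in CD36KO. Ccl27a, a ligand of Ccr10 known from skin, read 4.58 and 4.04. At the probe sets used all 4 ligands were on the lower side in CD36KO, from -0.54 to -0.08, but the mean over the probe sets of Ccl28 was 0.036, so its sign depended on the probe set. The proximal segment markers, given above, were lower in the same pools, and their part in these values was not tested. Ccr9 read 6.14 in WT and 5.94 in CD36KO, with its other 4 probe sets below the filter and between -0.08 and 0.50. Ccr10 read 5.87 and 5.71. Ccr6, the Ccl20 receptor of B cells and innate lymphoid cells, read 5.12 in WT and 5.70 in CD36KO, 1.49-fold higher, opposite in sign to its ligand.

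The neutrophil axis was mostly without signal above the filter. Cxcl1, the main inducible neutrophil attractant of mice, read 5.97 in WT and 5.86 in CD36KO. Its other probe sets read 5.54 and 5.72 (0.18), and 3.65 and 3.90 (0.25), so the sign depended on the probe set and no reading passed 1.5-fold. Cxcl2 read 3.07 in WT and 3.19 in CD36KO, Cxcl5 read 2.21 and 2.38, Cxcl3 read 2.15 and 2.23, and Cxcl15 read 3.82 and 3.72. Cxcr2, the receptor through which these ligands act on neutrophils, read 3.89 in WT and 4.03 in CD36KO. A difference in these 5 genes was not detectable at this signal. Of 10 neutrophil markers measured, 2 were above the filter, Elane (5.24 in WT, 5.23 in CD36KO) and Ltf (5.06 and 4.88), and the calprotectin genes S100a8 (3.45 and 3.38) and S100a9 (3.19 and 3.19) were below it.

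The interferon-inducible ligands went in opposite directions. Cxcl9, which attracts activated T cells through Cxcr3, read 6.04 in WT and 6.69 in CD36KO, 1.57-fold higher, with 3.84 and 4.09 (0.25) at a second, low probe set; the mean of both was 0.45, within 1.5-fold. Cxcl10, a ligand of the same receptor, read 5.87 in WT and 5.47 in CD36KO, differing by -0.40. Cxcl11 read 6.14 in WT and 6.05 in CD36KO; RefSeq lists it as a transcribed pseudogene in this assembly, which is of the C57BL/6J strain. Cxcr3 read 6.04 in WT and 6.27 in CD36KO. The T cell markers in the same pools lay within 1.5-fold, 9 of 9 above the filter, with a median of -0.01. Of the 3 NK cell and innate lymphoid markers above the filter 1 was lower past 1.5-fold, the NK receptor gene Klrd1 (6.80 in WT, 5.91 in CD36KO), and the transcription factor gene Tbx21 read 4.64 and 4.10, above the filter through WT alone; the median was -0.54 over these 3 and 0.02 over all 6 measured.

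The ligands of type 2 and regulatory responses held the 1 lower gene. Ccl24, an eosinophil attractant also called eotaxin-2, read 6.87 in WT and 6.01 in CD36KO, 1.81-fold lower at its single probe set. Ccl11, eotaxin-1, a further eosinophil attractant of the gut wall, read 4.74 in WT and 5.19 in CD36KO, 1.36-fold higher. These eotaxins thus differed in opposite directions, by -0.86 and 0.45. Their receptor Ccr3 was at 2.55 in WT and 2.53 in CD36KO. In the list of eosinophil and mast cell markers the eosinophil granule genes Prg2 (3.62 and 4.11) and Epx (3.13 and 3.04) were below the filter. The list's 4 genes above it were all higher, Siglecf (4.76 in WT, 5.70 in CD36KO), which eosinophils and tuft cells share, the mast cell genes Mcpt1 (4.06 and 6.02, above the filter through CD36KO alone) and Mcpt2 (4.54 and 5.58), and Kit (5.59 and 6.40), with -0.01 at another probe set of Kit. The mast cell genes Tpsb2 (4.37 and 3.85) and Mcpt4 (3.24 and 2.98) were below the filter and on the lower side, and the median was 0.99 over these 4 genes and 0.21 over all 11 measured. Of the Ccr4 ligands made by dendritic cells, Ccl22 read 4.76 in WT and 5.21 in CD36KO, and Ccl17 read 4.93 and 4.98. Ccr4, Ccr8 and the Ccr8 ligand Ccl1 were below the filter, with differences of -0.02, -0.27 and -0.05.

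The remaining ligands and receptors lay within 1.5-fold. Cx3cl1, a membrane-bound ligand of the epithelium and endothelium, read 8.12 in WT and 8.33 in CD36KO, and Cx3cr1, its receptor on intestinal macrophages, read 4.40 and 4.68. Cxcl16, a transmembrane ligand that also binds oxidized lipoprotein as CD36 does, read 7.16 in WT and 7.31 in CD36KO, and its receptor Cxcr6 was below the filter at 4.08 and 4.48. Cxcl14 read 6.29 and 6.57, and the mucosal Cxcl17 read 5.59 and 5.38. Xcl1 and Xcr1, the ligand and receptor pair of cytotoxic lymphocytes and cross-presenting dendritic cells, were below the filter: Xcl1 was at 3.20 in WT and 3.32 in CD36KO, and Xcr1 at 2.89 and 2.94. All 22 genes below the filter together ran from -0.38 to 0.79, with 2 at least 1.5-fold higher, Ccl12 and Cxcr4, and 0 lower.

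Probe sets of one gene did not always give one answer. Of the 54 genes 20 had several probe sets, and in 13 of these all had the same sign. Of the 8 genes past 1.5-fold above the filter, Ccl6, Ccl9 and Cxcl13 passed it at every probe set, Cxcl12 and Cxcl9 passed it at 1 alone, and Ccl8, Ackr3 and Ccl24 had a single probe set. The identifiers of the probe sets used for Cxcl1, Ccr9 and Ccl27a end in x_at and that of Ackr3 in s_at, which mark probes that other or related transcripts may share.

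**Figure D3:**
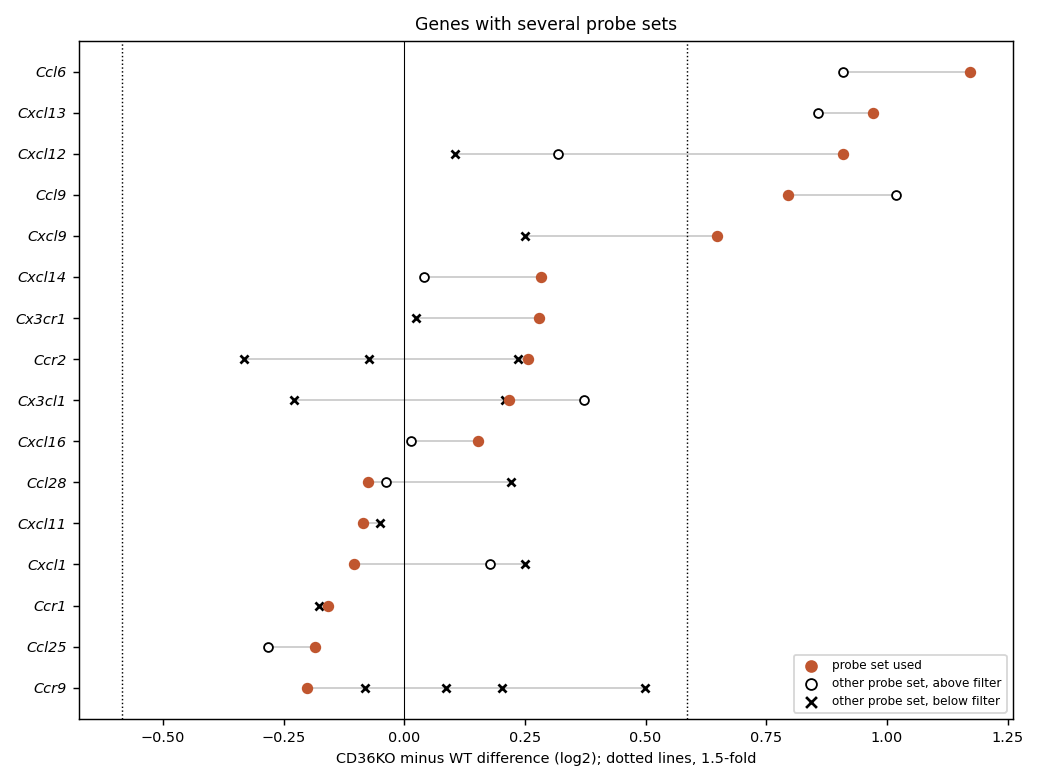
CD36KO minus WT difference (horizontal axis, log2) of every probe set of the 16 genes above the filter that have several; filled points are the probe set used, open circles other probe sets above the filter, crosses other probe sets below it, and dotted lines mark 1.5-fold. All points of Ccl6, Cxcl13 and Ccl9 lie right of the 1.5-fold line, from 0.80 to 1.17, whereas those of Cxcl12 spread from 0.11 to 0.91 and those of Ccr9 from -0.20 to 0.50.

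Ligands were set beside their known receptors in 30 pairs with both genes among the 54. In 11 pairs both were above the filter. The 1 pair with ligand and receptor past 1.5-fold was Cxcl12 (0.91) with Ackr3 (0.70). In 3 pairs the ligand alone passed, Ccl6 (1.17) and Ccl9 (0.80) with Ccr1 (-0.16), and Cxcl9 (0.65) with Cxcr3 (0.23). In 0 pairs did the receptor alone pass, and in 7 neither did. Cxcl12 and Cxcl9 passed 1.5-fold at 1 probe set alone, so the counts of pairs that hold them depended on the probe set. Pairs that share a gene are not independent.

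Other genes through which chemokines act were mostly within 1.5-fold at the probe sets used, as were 10949 of all 11981 genes above the filter. Of 24 genes of receptor signalling, all above the filter, 2 were higher past 1.5-fold and 0 lower, with a median of 0.19. Over all genes above the filter 5.31% were higher and 3.31% lower. The 2 higher were Pik3cg, the kinase activated by chemokine receptors in leukocytes (4.97 in WT, 6.07 in CD36KO, with 0.02 at another probe set), and the small GTPase gene Rac1 (10.48 and 11.23, with 0.46 and 0.03 at others). Grk6 and Coro1a lay within 1.5-fold at the probe sets used. At others Grk6 differed by 0.79 and 1.44, and Coro1a by 0.71 and -0.36. The inhibitory G protein gene Gnai2 read 10.03 and 10.08. Of 9 chemokine-like genes above the filter that the symbol rule leaves out, 2 were higher, Rarres2, which encodes chemerin (7.11 in WT, 7.79 in CD36KO, with 0.08 and 0.79 at other probe sets), and Cklf (6.61 and 7.36, with its other probe sets between 0.07 and 0.37), and the median was 0.39. The platelet chemokine Pf4 read 6.28 and 6.54, and Ccrl2 read 4.89 and 5.04.

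Genes that cut or display chemokines held 4 of 15 at least 1.5-fold higher and 0 lower at the probe sets used, with a median of 0.15. Over all genes above the filter the shares were 5.31% and 3.31%. Mmp7, a metalloproteinase of Paneth cells, read 8.12 in WT and 10.50 in CD36KO, and Mmp2 read 6.67 and 7.44. The heparan sulfate polymerase gene Ext1 (7.34 and 8.11) and the epimerase gene Glce (7.36 and 7.97) each had other probe sets within 1.5-fold. Dpp4, the peptidase that trims many chemokines, read 10.83 and 11.17. Sdc4, within 1.5-fold at the probe set used, read 7.97 in WT and 7.08 in CD36KO (-0.88) at its other. Sdc1 (0.62 and 1.29), Adam10 (0.70) and Adam17 (0.59) were past 1.5-fold higher at probe sets not used. The counts for this list thus depended on the probe set. A list of cytokines that induce chemokines, their receptors, and the transcription factor genes Rela, Relb, Stat3 and Stat6 held 13 genes above the filter. Of these 1 was higher, Il1r1 (5.82 in WT, 6.59 in CD36KO, with -0.02 at another probe set), and the median was 0.24. Il4ra, within 1.5-fold at the probe set used, differed by 0.68 and 0.05 at its others. Tnf read 5.19 and 5.47 and Il1b 4.65 and 4.92, while Ifng (2.54 and 2.91), Il17a (3.54 and 3.57) and Il6 (2.72 and 2.35) were below the filter. Of 10 adhesion genes of gut homing above the filter 3 were higher, with a median of 0.35 over the 10: the integrin genes Itgal (5.70 in WT, 6.43 in CD36KO, with 0.32 at another probe set) and Itgb2 (6.43 and 7.10) and Icam2 (4.10 and 4.89, through CD36KO alone). Madcam1, the gut vessel ligand for the integrin that homing lymphocytes carry, read 5.41 and 5.82. Vcam1, within 1.5-fold at the probe set used, differed by 0.80 and 0.42 at its others.

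**Figure D4:**
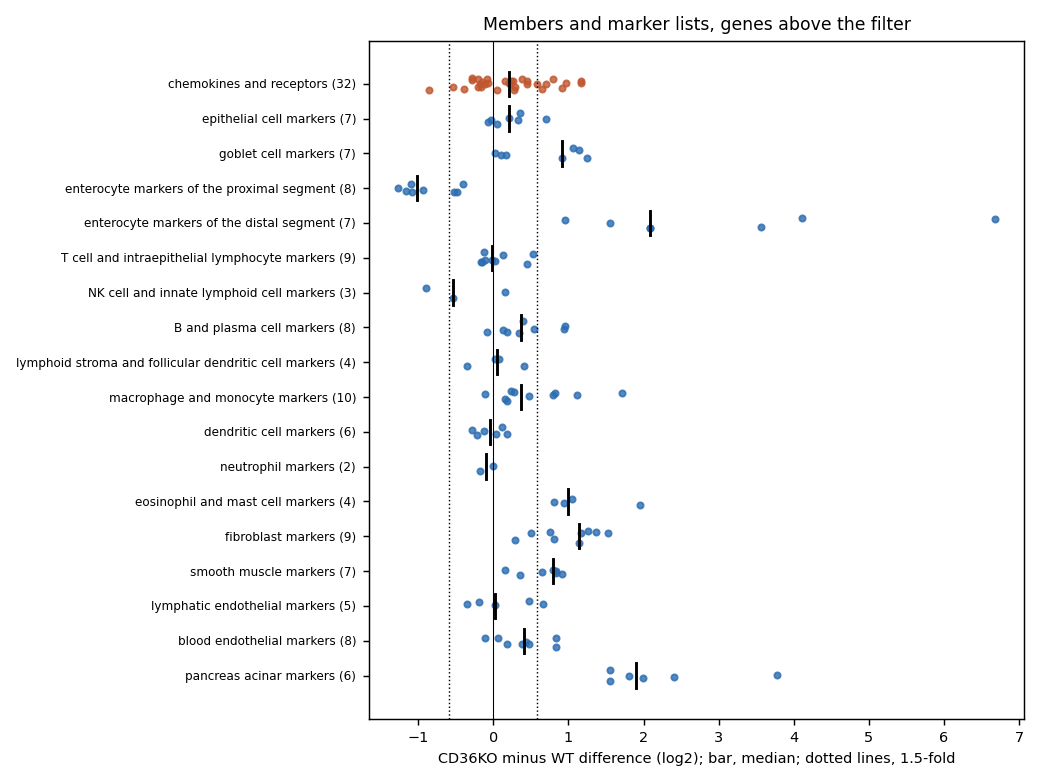
CD36KO minus WT difference (horizontal axis, log2) of the 32 chemokine and receptor genes (top row) and of the cell type marker genes above the filter (number in brackets), 1 point per gene, with a bar at the median and dotted lines at 1.5-fold. The chemokine median of 0.21 lies beside medians of 1.14 for fibroblast, 0.91 for goblet cell, 0.37 for macrophage and -0.01 for T cell markers.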

How the data were processed

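The deposited values are log2 expression per probe set, 1 column per array; per the labels' protocols, biotinylated cRNA was made from 100 ng of TRIzol-extracted total RNA pooled from 3 animals. How they were summarized and normalized is not given in the sources used; the range, up to 14.2, fits base 2. Probe sets were named from the platform annotation: 34958 carried 1 symbol, 932 several (not named) and 9211 none here; 34754 Entrez identifiers matched RefSeq GRCm38.p6, which changed 0 symbols. Each gene was read by its probe set of highest mean level, and CD36KO minus WT was taken on the values as deposited. A test was not possible with 1 array per genotype. The chemokine genes, roles, pairs and lists were chosen with earlier results of these data known. Named were all chemokine genes above the filter, those below it that pair with one or differ by 1.5-fold, and members of the pathway lists above the filter and past 1.5-fold; cell type markers and others are examples chosen after their values were seen. Alternatives were 3 scalings, 2 ways of joining probe sets, 3 filters, and 2-fold and 3-fold thresholds. The procedure was run on simulated data in which 200 genes were shifted by more than any chemokine gene here. That run therefore does not bear on differences near 1.5-fold. Software was statsmodels 0.14.6 (lowess, fraction 0.3), NumPy 2.4.6, pandas 2.3.3 and matplotlib 3.10.9 under Python 3.11.15.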

Additional observations from a re-analysis of the deposited data

Results flagged for a closer look

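A probe set shared by Ccl21a, Ccl21b, Ccl21c, Ccl21d and further near-identical genes, which is outside the comparisons because it carries several symbols, read 7.26 in WT and 8.31 in CD36KO. It was listed as data left out of the comparisons, and its difference of 1.05 (2.07-fold higher) was past 1.5-fold. Which of the genes gave the signal cannot be told apart. Ccl21 is made by lymphatic endothelium and lymphoid stroma; of 5 lymphatic endothelial markers above the filter 1 was at least 1.5-fold higher, Lyve1 (5.82 in WT, 6.48 in CD36KO), and their median was 0.02.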

How the results depend on the processing

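Under each of the 3 scalings (centring, quantile normalization, lowess) the 7 higher and 1 lower chemokine genes passed 1.5-fold in the same direction, and the largest move among the 32 differences was 0.043. With the mean over probe sets or the probe set of smallest difference, 5 were higher and 1 lower, Cxcl12 and Cxcl9 being lost; the filtered genes were kept as they were. The receptor median was 0.15 with the mean over probe sets, and with the smallest difference the medians of all, ligands and receptors were 0.032, 0.040 and 0.024. Without a filter the medians of all and of receptors were 0.11 and 0.15; at the 75th percentile filter, which left 12 ligands and no receptor, the median was 0.43. At 2-fold 2 were higher and 0 lower, and at 3-fold 0 and 0. No paired analysis was possible because each genotype had 1 array, so leaving out a replicate could not be done either. Low signal limits the 22 genes below the filter.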

Other observations

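Further probe sets shared by several near-identical genes held chemokines. The one annotated to Ccl19, the Ccr7 ligand of T cell zones, and to its copies read 6.12 in WT and 6.69 in CD36KO, 1.49-fold higher. Those annotated to Ccl27a, Ccl27b and their copies read 5.04 in WT and 5.13 in CD36KO (a difference of 0.10), and 4.95 in WT and 4.91 in CD36KO (-0.04), beside -0.54 at the probe set annotated to Ccl27a alone.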
